A study of Mus musculus with 46 samples.

Results

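The 32 genes described here are targets of the transcription factor ATF4 and further members of the integrated stress response, with Atf4 itself among them. They were chosen by gene symbol, and all 32 were present among the 53465 gene entries of the count table. By role they fall into 10 enzymes of amino acid synthesis and the folate cycle (Asns, Psat1, Phgdh, Psph, Shmt2, Mthfd2, Aldh18a1, Pycr1, Cth and Gpt2), 6 amino acid transporters (Slc7a11, Slc7a5, Slc3a2, Slc7a1, Slc7a3 and Slc1a4) and 7 transcription factors (Atf4, Ddit3, Atf3, Atf5, Cebpb, Cebpg and Nupr1). The others are 3 secreted factors (Gdf15, Fgf21 and Stc2) and 6 signalling and other effectors (Trib3, Chac1, Sesn2, Ddit4, Eif4ebp1 and Vldlr). The main finding was in liver, where 4 of them (Asns, Trib3, Atf3 and Ddit3) were higher in p150neg than in p150pos mice and none was lower, while of all genes tested there 6.94% were higher and 4.76% lower.

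The mice were of the C57BL/6 strain and 16 in number, and messenger RNA of their livers, kidneys and cerebella was sequenced on postnatal day 23. All 16 mice, in both groups, carried P195A, a change in the RNA-editing enzyme ADAR1 (gene Adar) within its domain for binding nucleic acids in the Z form. Of these mice, 8 were p150neg and 8 were p150pos, p150 being the interferon-inducible isoform of ADAR1 that holds this domain. The labels do not give the sex of the mice or the number of P195A alleles, and they name no agent, transgene or Cre. The design sets P195A mice named p150neg beside P195A mice named p150pos, organ by organ.

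In the integrated stress response, kinases that sense double-stranded RNA (PKR), misfolded protein in the endoplasmic reticulum (PERK), lack of amino acids (GCN2) or lack of haem and mitochondrial stress (HRI) phosphorylate the translation factor eIF2. Most translation then slows, while translation of Atf4 mRNA increases because of short reading frames in its leader. ATF4 pairs with C/EBP and related factors on C/EBP-ATF response elements and activates genes that make, import and spare amino acids, genes of its own feedback such as Trib3, and Ddit3, whose product CHOP can promote cell death. Because ATF4 is controlled in good part by translation, the level of Atf4 mRNA is not a measure of ATF4 protein. In liver the response also controls the hormones FGF21 and GDF15.

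The 41 libraries used came from 7 p150neg and 7 p150pos livers, 5 and 7 kidneys, and 8 and 7 cerebella, with 0.269 to 6.24 M counts per library and a median of 2.95 M (1 M is 1000000). The libraries labelled liver of animal 2, kidney of animals 2, 11 and 12 and cerebellum of animal 7 were left out because they held at most 0.825% of the median level of their labelled tissue's identity genes, against at least 59.8% in every library used. Adar, summed over its isoforms and so no check of p150, did not pass the test in any tissue (liver log2 fold change -0.59 ± 0.34, SE, adjusted p = 0.317 by edgeR's quasi-likelihood test). In 3 of the libraries used, many genes that the tissue expresses had no count: 47% of the genes tested were at 0 in the kidney of p150neg animal 3 (0.269 M counts), 25.5% in the cerebellum of p150neg animal 11 (0.945 M) and 15.8% in the kidney of p150pos animal 5 (1.3 M), against at most 2.43% in every other library. Kidney and cerebellum results are also given without these 3, which was decided once their values were known.

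In liver, Asns (chr6:7675169-7693254, minus strand, GRCm38) had the largest log2 fold change of the members tested and was the only member whose groups did not overlap. In kidney and cerebellum the groups of every member overlapped. The share of all genes whose groups did not overlap is not given here, so these counts do not show how unusual this is. Asns encodes asparagine synthetase, which makes asparagine from aspartate and glutamine and is a classical ATF4 target. In liver it stood at 41.3 to 138 CPM (counts per 1000000 counts of the library) with a median of 100.1 in the 7 p150neg mice, against 3.86 to 16.4 CPM with a median of 7.12 in the 7 p150pos mice. Every p150neg liver was above every p150pos liver. The means were 94.3 ± 34.1 CPM in p150neg and 9.65 ± 5.22 CPM in p150pos livers (SD, n = 7 each), and the log2 fold change was 3.40 ± 0.34 (SE, with an adjusted p of 1.86e-06 by edgeR's quasi-likelihood test with Benjamini-Hochberg adjustment over 9843 genes). In bulk tissue, a change in the mix of cells and a change in the RNA of each cell cannot be told apart.

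Trib3, Atf3 and Ddit3 were also higher in p150neg livers. Trib3 (chr2:152337422-152344032, minus strand), a pseudokinase that binds ATF4 and AKT and dampens both, ranged from 7.62 to 77.6 CPM with a median of 20.7 in p150neg livers, against 2.70 to 9.49 CPM with a median of 7.61 in p150pos livers. All p150neg livers but that of animal 9 were above every p150pos liver, and the log2 fold change was 2.24 ± 0.43 (edgeR adjusted p = 0.00116). Atf3 (chr1:191170296-191218039, minus strand), a stress-induced factor of the ATF and CREB family, ranged from 1.52 to 38.0 CPM with a median of 11.1 in p150neg livers, against 0 to 7.76 CPM with a median of 2.44 in p150pos livers. Here 4 of 7 p150neg livers were above every p150pos liver, and the log2 fold change was 2.49 ± 0.68 (edgeR adjusted p = 0.0198). Ddit3 (chr10:127290774-127296288, plus strand), the gene of CHOP, ranged from 3.04 to 40.4 CPM with a median of 25.5 in p150neg livers, against 3.76 to 20.0 CPM with a median of 10.3 in p150pos livers. Of the p150neg livers, 6 were above every p150pos liver and that of animal 1 was below all of them, and the log2 fold change was 1.42 ± 0.42 (edgeR adjusted p = 0.0322).

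The calls of Asns and Trib3 held when each of the 14 livers was left out in turn, with log2 fold changes of 3.19 to 3.58 and 1.82 to 2.42. Atf3 lost its call without p150neg animal 14 (edgeR adjusted p = 0.0769) and with the level of Xist as a stand-in for sex (0.0968). Ddit3 lost its call when any of 8 livers was left out (p150neg animals 8, 11, 14 or 16, or p150pos animals 4, 6, 7 or 12, edgeR adjusted p up to 0.0789), over all labelled livers (0.0824), without the p150neg liver under 1 M counts (0.0664) and with Xist (0.0697). Ddit3 overlaps exons of other annotated genes (Mars and Gm4189 on the opposite strand and a further Ddit3 entry on the same strand), and the strand setting of the counting is not given in the sources used here, so its level is uncertain. Animal identifiers fall into series by their first part, and within the P094 animals the difference of mean log2 CPM was 3.17 for Asns, 2.08 for Trib3, 1.88 for Atf3 and 0.44 for Ddit3, against 3.36, 1.81, 2.44 and 1.68 within the AC, AA and AS animals. The P094 livers used were only those of p150neg animals 1 and 3 and p150pos animals 4 and 6. They include animal 1 with its low Ddit3, so these values do not show a difference between series.

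**Figure D1:**
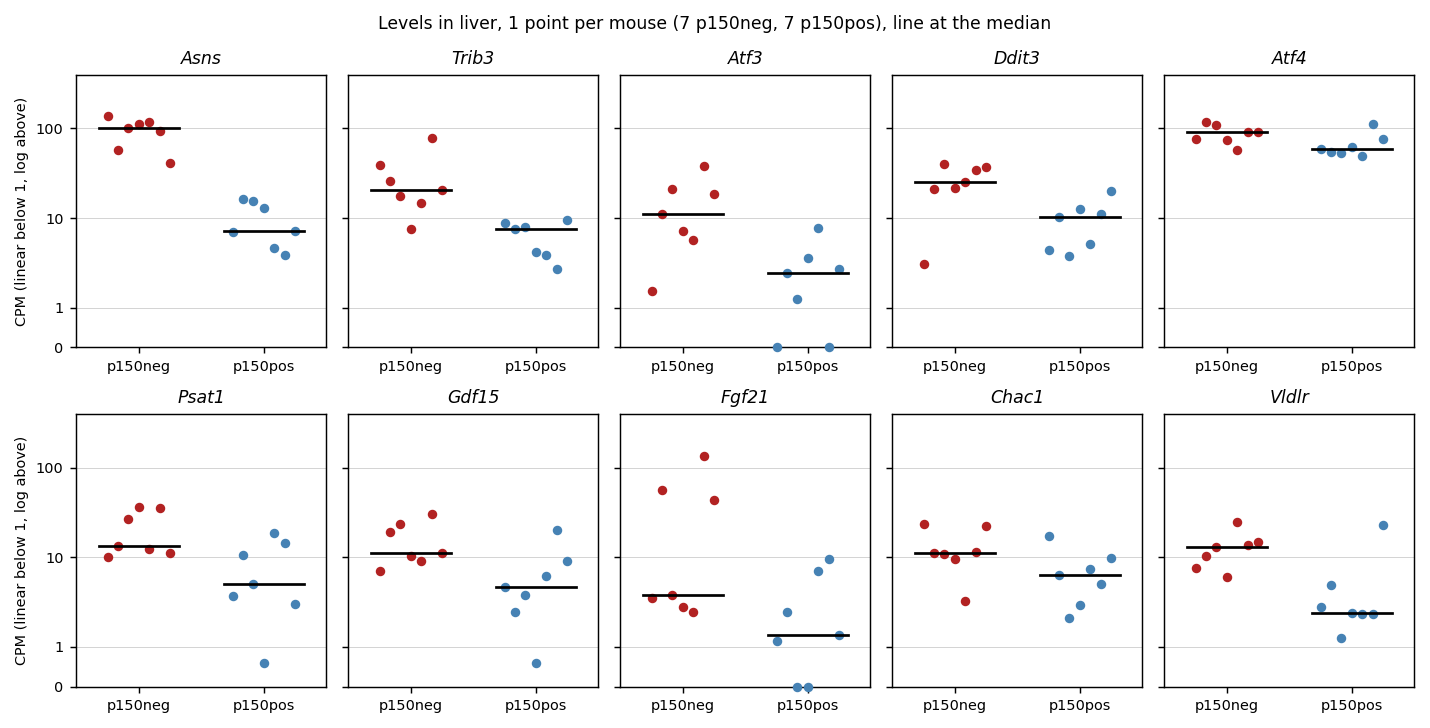
Level of 10 genes in each liver in CPM (vertical axis linear below 1 and logarithmic above), with 7 p150neg livers at left and 7 p150pos livers at right in each panel and a line at the group median. The p150neg livers lie above all p150pos livers for Asns (41.3 to 138 CPM in p150neg, 3.86 to 16.4 CPM in p150pos), and 3 p150neg livers stand far above the rest for Fgf21.

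The DNA before the starts of the 4 called genes is printed here because it holds, or lacks, the response element through which ATF4 is known to act. Each line gives the 250 bases before the start annotated by RefSeq (GRCm38.p6), 5′ to 3′ on the strand of the gene, with matches to the motif TGATGNAA on either strand in capitals.
Asns (chr6:7693210-7693459, minus strand): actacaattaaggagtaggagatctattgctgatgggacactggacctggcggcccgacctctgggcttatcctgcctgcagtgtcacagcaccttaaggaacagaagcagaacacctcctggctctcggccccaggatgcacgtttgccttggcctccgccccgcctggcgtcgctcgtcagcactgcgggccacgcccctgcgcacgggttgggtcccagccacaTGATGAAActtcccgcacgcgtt
Atf3 (chr1:191183334-191183583, minus strand): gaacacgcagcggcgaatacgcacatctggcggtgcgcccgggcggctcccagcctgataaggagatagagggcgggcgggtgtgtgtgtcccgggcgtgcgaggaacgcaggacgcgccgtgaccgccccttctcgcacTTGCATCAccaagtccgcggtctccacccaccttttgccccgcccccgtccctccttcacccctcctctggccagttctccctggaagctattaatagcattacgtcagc
Trib3 (chr2:152344061-152344310, minus strand): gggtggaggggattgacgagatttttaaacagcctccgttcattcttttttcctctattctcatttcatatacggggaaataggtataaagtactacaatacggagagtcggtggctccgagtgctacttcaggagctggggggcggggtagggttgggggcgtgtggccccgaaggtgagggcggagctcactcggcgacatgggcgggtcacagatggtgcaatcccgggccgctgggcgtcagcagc
Ddit3 (chr10:127290543-127290792, plus strand): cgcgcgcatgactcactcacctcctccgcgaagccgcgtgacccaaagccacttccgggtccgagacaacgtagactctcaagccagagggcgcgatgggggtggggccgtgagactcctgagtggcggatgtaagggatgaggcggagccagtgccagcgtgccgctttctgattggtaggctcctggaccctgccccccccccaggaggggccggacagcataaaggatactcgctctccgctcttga
The Asns and Atf3 stretches each hold a match, that of Asns within 23 bases of the start, while those of Trib3 and Ddit3 hold none. Trib3 has a match just past its RefSeq start, and no match in Ddit3 says only that these letters are not in this window. The gene positions given above are from GENCODE, whose starts differ from those of RefSeq. The Atf3 stretch, for example, lies inside the GENCODE span of the gene. Whether a match lies before or past a start therefore depends on the annotation.

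Over the whole window from 250 bases before to 50 after the start, 10 of the 28 members with a RefSeq promoter held the motif (35.7%), against 1219 of 27025 genes (4.51%) and 216 of the 7726 genes tested in liver that have a promoter (2.8%). The longer form TGATGCAA was in 8 of the 28 (28.6%), against 279 of 27025 genes (1.03%). The members were listed as ATF4 targets and further genes of the response. A higher share than among all genes can follow from that choice alone, so the comparison is no independent test. The sites of the other genes that hold the motif, and that of Trib3, are printed with 10 bases on each side to show where they lie; the letters in capitals are alike because they were searched for.
Trib3 (chr2:152344029-152344056, minus strand): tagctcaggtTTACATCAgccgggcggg
Fgf21 (chr7:45615612-45615639, minus strand): gacccccccaTTGCATCAtccgtccagg
Chac1 (chr2:119351039-119351066, plus strand): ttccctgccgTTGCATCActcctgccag
Vldlr (chr19:27216810-27216837, plus strand): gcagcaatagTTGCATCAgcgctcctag
Nupr1 (chr7:126625563-126625590, minus strand): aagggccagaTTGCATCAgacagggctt
Pycr1 (chr11:120643834-120643861, minus strand): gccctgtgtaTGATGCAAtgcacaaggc
Slc1a4 (chr11:20332700-20332727, minus strand): gcctcctgcgTTGCATCAtctccagcct
Slc7a11 (chr3:50443662-50443689, minus strand): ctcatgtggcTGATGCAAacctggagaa
Slc7a11 (chr3:50443643-50443670, minus strand): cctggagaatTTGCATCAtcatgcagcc
Slc7a11 was the gene with 2 sites, on opposite strands. Of the 10 genes with the motif, Asns, Atf3 and Trib3 were among the 4 called in liver, and Ddit3 was called without it. Slc1a4, Chac1, Vldlr and Nupr1 were tested in liver and not called, while Fgf21, Pycr1 and Slc7a11 were not tested. The share called among all genes with the motif is not given here, so no link between motif and call can be read from this. A match is a description of the letters and not a measured binding site. Cth, Eif4ebp1, Slc7a3 and Slc7a5 had no promoter in the table used.

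**Figure D2:**
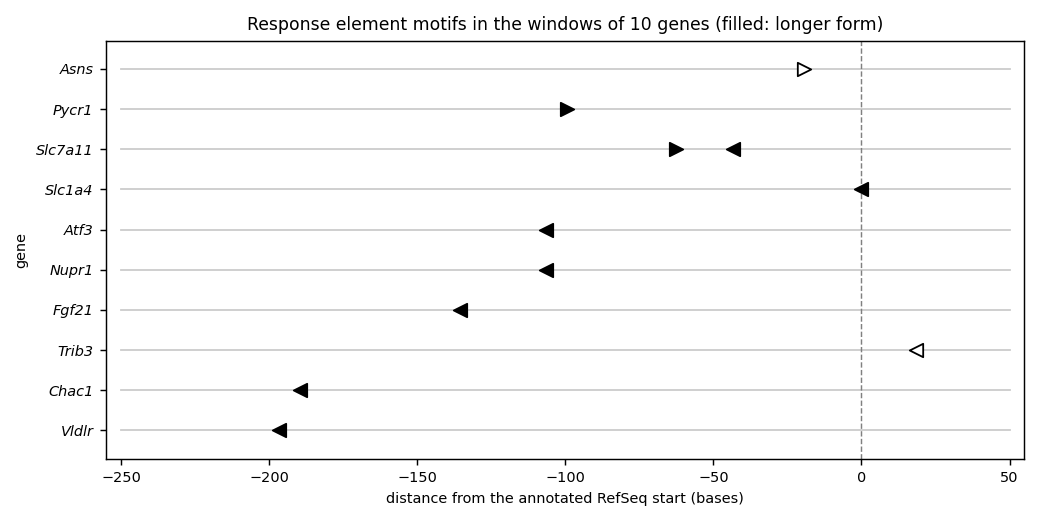
Position of the motif TGATGNAA in the windows of the 10 genes that hold it, in bases from the annotated RefSeq start (horizontal axis, start at 0; grey lines, the window searched). Arrowheads point along the strand of the motif relative to the gene and are filled for the longer form TGATGCAA; all but the Trib3 site, and that of Slc1a4 across the start, lie before the start.

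Of the 32 members, 22 had enough counts to be tested in liver. The 4 called higher were 18.2% of the 22, against 6.94% of all 9843 genes tested that were called higher. None of the 22 was called lower, against 4.76% of all genes (11.7% were called in either direction), though Shmt2 was called lower without p150pos animal 13 (edgeR adjusted p = 0.0356) and Cebpg without p150neg animal 3 (0.0332). The log2 fold change was positive in 20 of the 22 and the median was 0.71, against a median of -0.04 over all genes tested, and 11 of the 22 had an unadjusted p under 0.05, as did 23.3% of all genes tested in liver. Atf3 and Vldlr reached the level needed for testing in at most 3 of 7 p150pos livers, so they entered the test through the p150neg livers. Without any filter on low counts all 32 members were fitted: 30 had a positive and 2 a negative log2 fold change, and the median was 1.02. In that fit 6 members were called, all higher, and 1462 genes of all were called in either direction. The share called and the median over all genes of that fit are not given here, so its values for the members lack a background.

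Among the synthesis enzymes in liver, Asns was called and 6 of the 7 tested did not pass, with a median log2 fold change of 0.38. Psat1, which makes phosphoserine on the way to serine, came nearest. It ranged from 10.1 to 36.1 CPM with a median of 13.5 in p150neg livers, against 0.594 to 18.9 CPM with a median of 5.01 in p150pos livers, and 3 of 7 p150neg livers were above every p150pos liver. Its log2 fold change was 1.35 ± 0.46 (edgeR adjusted p = 0.067), and it passed with DESeq2, with limma's voom, with no filter on low counts, with Xist as a covariate, with 1 fit of all 3 tissues, or without p150pos animal 12 or 13. Mthfd2, a mitochondrial folate enzyme, stood at 1.06 ± 0.46 (0.166). Shmt2, which feeds the same folate cycle from serine, stood at -0.51 ± 0.25 (0.232), with every p150neg liver under the p150pos median; its exons overlap those of Ndufa4l2 on the opposite strand. Psph, the last enzyme of serine synthesis, whose exons overlap Cct6a (0.38 ± 0.28), Cth, which makes cysteine (0.29 ± 0.27), and Gpt2, an alanine transaminase (0.34 ± 0.28), did not pass. Phgdh, the entry enzyme of serine synthesis, and Aldh18a1 and Pycr1, both of proline synthesis, were too low to test.

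Most amino acid transporters were low in liver. Only Slc3a2, the heavy chain that carries several transporters to the membrane (0.25 ± 0.22, edgeR adjusted p = 0.56), and Slc1a4, a carrier of alanine, serine and cysteine (0.73 ± 0.34, 0.194), were tested, and neither passed. Slc1a4 ranged from 3.76 to 26.7 CPM with a median of 23.3 in p150neg livers, against 4.63 to 19.7 CPM with a median of 13.1 in p150pos livers, so the groups overlapped. Slc7a11, the cystine transporter, had 0.411 to 4.81 CPM in 6 of 7 p150neg livers and 0 in that of animal 3, whereas 6 of 7 p150pos livers had no count and that of animal 12 had 1.03 CPM. It was too low for the test, and with no filter its log2 fold change was 3.03 ± 1.03 (edgeR adjusted p = 0.0719), while 1 fit of all 3 tissues called it higher (3.12 ± 0.82, 0.0114). Slc7a5, a carrier of large neutral amino acids, and Slc7a1, a carrier of arginine and lysine, were present at low level and not tested. Slc7a3, a further carrier of this kind, was at 0 in every liver but that of p150neg animal 8 (0.343 CPM).

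Atf4 itself was expressed in every liver. It ranged from 57.5 to 118 CPM with a median of 92.1 in p150neg livers, against 48.9 to 113 CPM with a median of 58.5 in p150pos livers. The ranges overlapped nearly in full, although 6 of 7 p150neg livers were above the p150pos median, and the log2 fold change was 0.42 ± 0.22 (edgeR adjusted p = 0.277). Without p150pos animal 13, whose liver held the highest level of its group, the adjusted p was 0.0177. Leaving out the highest p150pos liver makes the p smaller, so this value is a description and no test. Nupr1, a small chromatin-associated stress protein, stood at 1.16 ± 0.47 (0.129). Cebpb and Cebpg, bZIP factors that can pair with ATF4, stood at 0.32 ± 0.22 (0.444) and -0.54 ± 0.23 (0.15), and Atf5 at 0.11 ± 0.56 (0.946); all 3 overlap exons of other genes.

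Of the secreted factors, Fgf21, a hepatic hormone of fasting and stress, divided the p150neg livers. Those of animals 3, 14 and 16 held 55.9, 136 and 43.2 CPM, while those of animals 1, 8, 9 and 11 held 3.55, 3.77, 2.81 and 2.47 CPM. The 7 p150pos livers held 0 to 9.65 CPM with a median of 1.36. All p150neg livers were above the p150pos median and 3 were above every p150pos liver. Fgf21 had too few libraries at the level required by the planned filter and was not tested by it; that filter asked for 3.91 CPM in 7 livers. Under lower limits Fgf21 was called higher in p150neg livers, with a log2 fold change of 3.40 ± 0.91 (edgeR adjusted p = 0.0169) with a limit of 2 CPM and 3.39 ± 0.66 (3.70e-04) with none. All 7 p150neg livers were past 2 CPM while the p150pos median was below it. Fgf21 thus entered the test at 2 CPM through the p150neg livers, the group where it was high. Gdf15, which lowers food intake through a receptor in the hindbrain, ranged from 7.10 to 30.6 CPM with a median of 11.3 in p150neg livers, against 0.594 to 20.1 CPM with a median of 4.65 in p150pos livers. Its log2 fold change was 1.21 ± 0.48 (edgeR adjusted p = 0.124), and the adjusted p was 0.00367 without p150pos animal 13. The liver of animal 13 held the highest Gdf15 of its group, so the smaller p is a description and no test. Stc2, a stanniocalcin, was at or under 0.802 CPM in every liver.

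Besides Trib3, 4 of the 6 signalling and other effectors were tested in liver and did not pass. Chac1, which breaks down glutathione, ranged from 3.29 to 23.3 CPM with a median of 11.1 in p150neg livers, against 2.09 to 17.4 CPM with a median of 6.39 in p150pos livers. Its log2 fold change was 0.84 ± 0.46 (edgeR adjusted p = 0.289), and only animals 1 and 16 were above every p150pos liver. Vldlr, a lipoprotein receptor that takes up triglyceride-rich particles, ranged from 6.02 to 25.1 CPM with a median of 13.0 in p150neg livers. In p150pos livers it was 1.25 to 4.87 CPM in 6 and 22.7 CPM in animal 15. The log2 fold change of Vldlr was 1.24 ± 0.54 (edgeR adjusted p = 0.168), and 2.28 (5.87e-04) without that p150pos liver. The liver left out was the highest of its group, so the smaller p is a description and no test. Vldlr also entered the test through the p150neg livers. Sesn2, a leucine-sensing inhibitor of mTORC1 signalling (0.69 ± 0.43), and Eif4ebp1, which holds back cap-dependent translation (0.19 ± 0.16), did not pass. Ddit4, a further mTORC1 inhibitor, was too low for the planned filter, at 0 to 7.62 CPM with a median of 3.43 in p150neg livers, against 0 to 2.32 CPM with a median of 1.25 in p150pos livers, and 1 fit of all 3 tissues called it higher (1.55 ± 0.45, edgeR adjusted p = 0.0243).

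**Figure D3:**
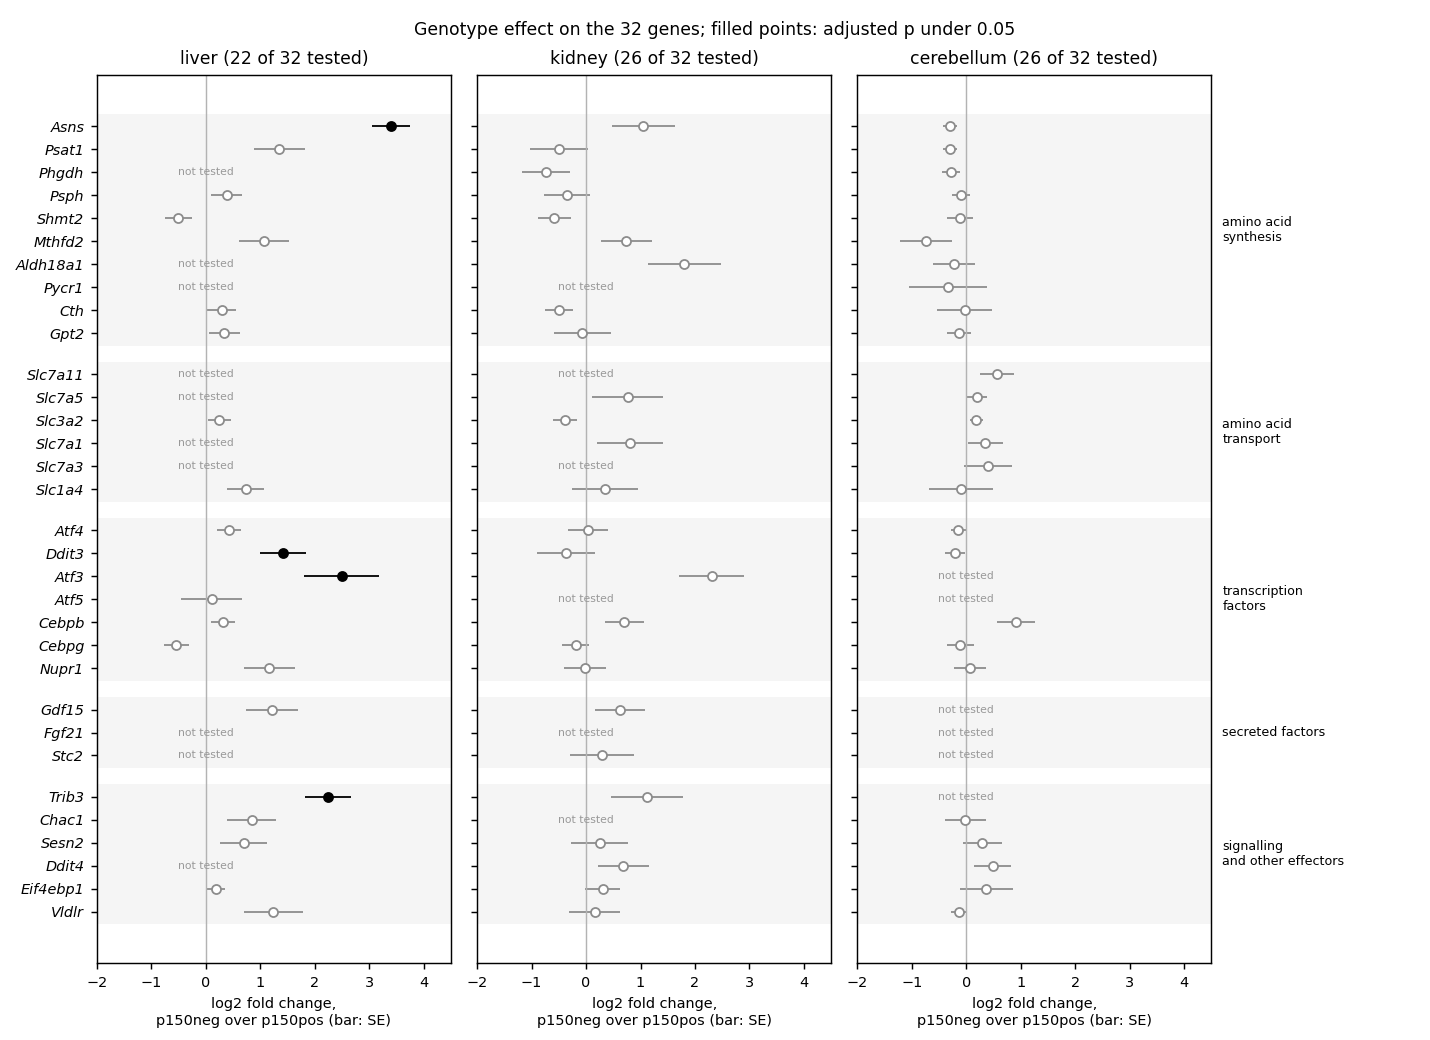
Log2 fold change of p150neg over p150pos (horizontal axis; bars, SE) for each of the 32 genes in liver, kidney and cerebellum, by subgroup, with filled points at an adjusted p under 0.05. The filled points are Asns, Ddit3, Atf3 and Trib3 in liver; the synthesis enzymes lie to the left of 0 in cerebellum, though Cth, Psph, Pycr1 and Shmt2 turned positive under some other settings.

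The p150neg livers did not share 1 pattern. Animal 1 had the highest Asns (138 CPM) and Chac1 (23.3 CPM) and the second highest Trib3 (39.0 CPM), yet the lowest Ddit3 (3.04 CPM), Atf3 (1.52 CPM) and Gdf15 (7.10 CPM) of the p150neg livers. Animal 14 had the highest Trib3 (77.6 CPM), Atf3 (38.0 CPM), Gdf15 (30.6 CPM) and Fgf21 (136 CPM). Animal 8 had the highest Ddit3 (40.4 CPM) with low Fgf21 (3.77 CPM). Animals 8 and 14 each had 17 of the 32 members above every p150pos liver, while animals 1 and 16 had 6 and 7, animal 11 had 9, animal 9 had 10 and animal 3 had 11. The share of all genes above every p150pos liver is not given here, so these counts do not show how unusual they are. They also include members with hardly any counts, such as Slc7a3 in animal 8. The high Fgf21 of animals 3, 14 and 16 thus did not go with the highest Asns: animals 3 and 16 had the lowest Asns of the group, 57.1 and 41.3 CPM. The liver of animal 16 had the fewest counts of the livers used (0.532 M) and 2.43% of the tested genes at 0. Its levels and its number of members above every p150pos liver are therefore less certain.

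**Figure D4:**
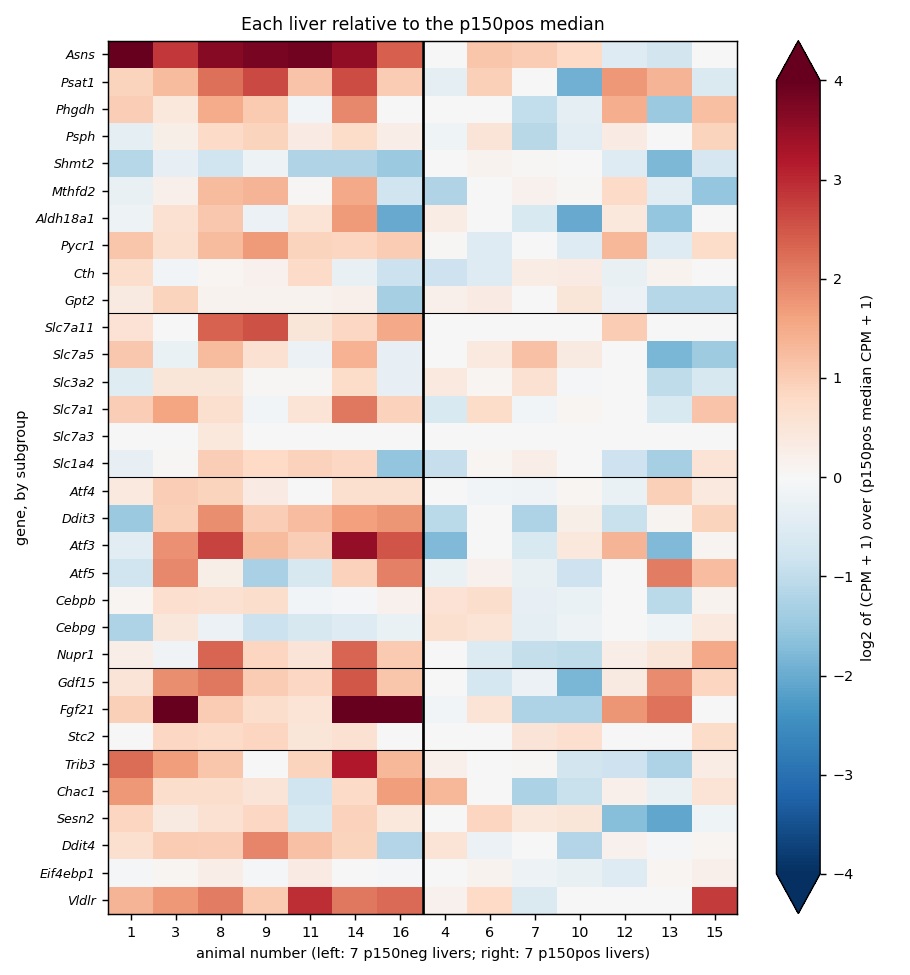
Log2 of the ratio of each liver's level (CPM + 1) to the p150pos median (CPM + 1) for the 32 genes (rows, by subgroup) in 7 p150neg livers (left) and 7 p150pos livers (right), with colours capped at 4 in either direction. Asns is raised in all 7 p150neg livers, while Fgf21 is strongly raised in animals 3, 14 and 16 and Ddit3 is low in animal 1.

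Markers of neutrophils and of macrophages and monocytes moved with the genotype in the same livers. The summed level of 11 neutrophil markers was 451 to 1671 CPM in p150neg livers, against 27.3 to 178 CPM in p150pos livers, and that of 15 macrophage and monocyte markers was 1452 to 3105 CPM in p150neg livers, against 484 to 1160 CPM in p150pos livers. All 11 and 13 of the 15 (not Cx3cr1 and Mrc1) had a higher median in p150neg livers. Of 6 T cell markers, 5 had a higher and 1 a lower p150neg median. All 5 B cell markers went the other way, with a lower p150neg median. Their sums had medians of 11.1 CPM in p150neg and 21.7 CPM in p150pos livers, with overlapping ranges (5.58 to 49.3 and 10.1 to 41.3 CPM). The neutrophil gene Ly6g had no count in 1 of 7 p150neg livers and in 6 of 7 p150pos livers, and Cxcr2 had none in 4 of 7 p150pos livers. A list of small intestine markers summed to 215 to 984 CPM in p150neg livers, against 80.2 to 192 CPM in p150pos livers, but Apoa4 was its only gene with a higher p150neg median, and Lct and Alpi had medians of 0. Liver identity genes summed to 34640 to 66110 CPM in p150neg and 45870 to 66690 CPM in p150pos livers. The part of these cells in the results for the 32 genes was not tested.

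Of 16 other genes with reported ATF4 binding, 13 were tested in liver and 2 were higher in p150neg mice (15.4%, against 6.94% of all genes), Mthfd1l, a mitochondrial folate enzyme (1.37 ± 0.40, edgeR adjusted p = 0.0293), and Gtpbp2, which helps to rescue stalled ribosomes (1.10 ± 0.35, 0.0474). Jdp2, a partner of AP-1 factors, stood just outside the threshold (1.22 ± 0.40, 0.0538). Of 20 cytosolic aminoacyl-tRNA synthetases, which charge tRNAs with amino acids, none was called in any tissue (11.7% of all genes were in liver), and in liver 8 had positive and 12 negative log2 fold changes, with Cars at -0.75 ± 0.26 (0.0695). None of 13 genes for the eIF2 kinases, eIF2, its phosphatase and its exchange factor was called in liver or kidney. In cerebellum 1 of these 13 was higher (7.69%, against 0.723% of all genes), Eif2ak2, the interferon-inducible gene of PKR, at 8.05 to 58.2 CPM with a median of 28.2 in p150neg mice, against 2.73 to 10.7 CPM with a median of 5.12 in p150pos mice (2.44 ± 0.41, edgeR adjusted p = 0.00249).

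In kidney, 26 of the 32 members were tested and none was called, against 0.694% of 11957 genes tested (0.385% higher, 0.309% lower); before adjustment 2 of the 26 were under 0.05, as were 8.19% of all genes, and DESeq2 called Atf3 among 307 genes. The log2 fold change was positive in 16 and negative in 10. The median was 0.27, against -0.07 over all genes. Without p150neg animal 3 and p150pos animal 5, whose libraries had many genes at 0, Asns and Atf3 were called higher, and 532 genes of all were called, against 83 with every kidney used. Aldh18a1, Atf3 and Trib3 reached the level needed for testing in at most 3 p150pos kidneys.

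Asns in the p150neg kidneys of animals 1, 3, 8, 9 and 16 was 31.7, 3.71, 36.1, 40.5 and 23.4 CPM. In the 7 p150pos kidneys it ranged from 5.38 to 43.1 CPM with a median of 8.00. The value of 3.71 CPM is 1 count in the shallowest library, and the value of 43.1 CPM is that of animal 5, with 14.5 CPM the next highest p150pos kidney. With all 12 kidneys the log2 fold change was 1.05 ± 0.57 (edgeR adjusted p = 0.702). Without those of animals 3 and 5 every p150neg kidney was above every p150pos kidney, and the log2 fold change was 1.90 ± 0.29 (0.00133, 4 against 6 mice). These 2 kidneys held the lowest p150neg and the highest p150pos value of Asns, and they were left out once the values were known. The separation without them is therefore a description and no test.

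Atf3 in the same p150neg kidneys was 6.29, 0, 21.7, 8.91 and 16.4 CPM, against 0 to 4.72 CPM with a median of 1.76 in p150pos kidneys. The 4 p150neg kidneys other than that of animal 3 were above every p150pos kidney. The log2 fold change was 2.30 ± 0.60 (edgeR adjusted p = 0.113), and the adjusted p was 0.027 without animal 3 and 0.00519 without animals 3 and 5. Leaving out both animals was decided once the values were known, so that last p is a description and no test. Aldh18a1, the entry enzyme of proline synthesis, was 5.43, 0, 26.6, 17.4 and 6.15 CPM in p150neg kidneys, against 0 to 5.72 CPM with a median of 3.75 in p150pos kidneys (1.80 ± 0.67, 0.365). Trib3 was 6.00, 0, 13.3, 4.46 and 4.51 CPM in p150neg kidneys, against 0 to 8.78 CPM with a median of 1.88 in p150pos kidneys (1.12 ± 0.67, 0.748). For Aldh18a1 and Trib3 the groups overlapped.

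The rest of the stress response genes in kidney showed no difference past the test. Atf4 was 95.5, 7.43, 148, 118 and 121 CPM in p150neg kidneys, against 73.0 to 115 CPM with a median of 94.8 in p150pos kidneys (0.03 ± 0.38, edgeR adjusted p = 0.997). Ddit3 was 19.4, 0, 21.0, 21.4 and 38.5 CPM in p150neg kidneys, against 15.5 to 67.0 CPM with a median of 18.2 in p150pos kidneys (-0.37 ± 0.53, 0.965). Without animals 3 and 5 Ddit3 turned to 0.26 and Atf4 stood at 0.29, and without p150neg animal 8 Atf4 turned to -0.13; none of these passed. Gdf15 was 8.86, 22.3, 21.0, 18.7 and 4.51 CPM in p150neg kidneys, against 5.16 to 15.4 CPM with a median of 8.12 in p150pos kidneys (0.62 ± 0.45, 0.842), and these groups overlapped. Slc7a1 was 11.2, 0, 19.6, 7.13 and 9.02 CPM in p150neg kidneys, against 0 to 9.22 CPM with a median of 6.64 in p150pos kidneys (0.80 ± 0.60, 0.853). Chac1 was too low to test, at 3.43, 0, 4.2, 3.56 and 1.23 CPM in p150neg kidneys, against 0 to 1.85 CPM with a median of 0.214 in p150pos kidneys. Fgf21 had no count in any kidney.

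By subgroup, the median log2 fold change in kidney was -0.35 for 9 synthesis enzymes tested, 0.55 for 4 transporters, 0.01 for 6 transcription factors, 0.46 for 2 secreted factors and 0.30 for 5 effectors. Phgdh (-0.73 ± 0.44), Psat1 (-0.49 ± 0.53), Shmt2 (-0.58 ± 0.30), Cth (-0.50 ± 0.26) and Psph (-0.35 ± 0.42) were all negative, with Psat1 turning positive under at least 1 other setting, and none passed. Pycr1, Slc7a11, Slc7a3 and Atf5 were too low to test in kidney. Neutrophil markers summed to 126 to 251 CPM in p150neg kidneys, against 10.7 to 81.6 CPM in p150pos kidneys, with 10 of 11 markers at a higher p150neg median and Mmp9 at a lower one. Erythroid markers summed to 827 to 2726 CPM in p150neg kidneys, against 3194 to 8024 CPM in p150pos kidneys. The part of these cells in the kidney values was not tested.

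In cerebellum, 26 members were tested and none was called, by edgeR or DESeq2, against 0.997% of 13146 genes tested (0.723% higher, 0.274% lower); 3 of the 26 had an unadjusted p under 0.05, as did 9.57% of all genes. The log2 fold change was positive in 10 and negative in 16, with a median of -0.10 against 0.00 over all genes. All 10 synthesis enzymes had a negative value, from -0.03 to -0.74, and 5 of 6 transporters a positive one, from 0.18 to 0.56, though Cth, Psph and Pycr1 turned positive under at least 1 other setting, and Shmt2 when 1 library was left out. Without p150neg animal 11 again none was called.

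Asns in cerebellum ranged from 119 to 222 CPM with a median of 156 in the 8 p150neg mice, against 162 to 221 CPM with a median of 187 in the 7 p150pos mice. The groups overlapped, with 7 of 8 p150neg cerebella under the p150pos median (-0.29 ± 0.13, edgeR adjusted p = 0.464). Psat1 likewise ranged from 120 to 216 CPM with a median of 155 in p150neg cerebella, against 152 to 222 CPM with a median of 197 in p150pos cerebella (-0.30 ± 0.12, 0.433). Mthfd2 had the largest difference among the enzymes, at 0 to 23.9 CPM with a median of 12.1 in p150neg cerebella, against 12.0 to 25.9 CPM with a median of 19.0 in p150pos cerebella (-0.74 ± 0.47, 0.684). Its 0 in p150neg animal 11, where 25.5% of tested genes had no count, went with a value of -0.58 ± 0.36 without that animal.

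Trib3 was too low to be tested in cerebellum, and its groups overlapped, though 6 of 8 p150neg cerebella were above every p150pos cerebellum. In p150neg cerebella it was 0 in animals 1 and 8 and 3.87 to 21.2 CPM in the other 6, and in p150pos cerebella it was 0 to 1.6 CPM with a median of 0.345. The highest value was that of animal 11, whose library had 25.5% of the tested genes at 0. With no filter the log2 fold change was 3.15 ± 1.03 (edgeR adjusted p = 0.274), and in 1 fit of all 3 tissues, which shares the estimate of spread, it was 3.12 ± 0.81 (0.0335). Atf3, also too low, was 0 to 9.64 CPM with a median of 2.55 in p150neg cerebella, against 0.541 to 2.42 CPM with a median of 1.92 in p150pos cerebella.

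Of the other genes in cerebellum, Cebpb ranged from 7.58 to 26.5 CPM with a median of 10.2 in p150neg mice, against 3.25 to 7.77 CPM with a median of 7.04 in p150pos mice. All 8 p150neg cerebella were above the p150pos median and 5 above every p150pos cerebellum (0.91 ± 0.35, edgeR adjusted p = 0.36). Slc7a11 ranged from 13.5 to 56.1 CPM with a median of 21.9 in p150neg cerebella, against 10.8 to 22.3 CPM with a median of 17.7 in p150pos cerebella (0.56 ± 0.31, 0.602), and the groups overlapped. Ddit4 ranged from 5.23 to 16.9 CPM with a median of 10.9 in p150neg cerebella, against 3.37 to 10.5 CPM with a median of 9.12 in p150pos cerebella (0.49 ± 0.34, 0.717). Atf4 ranged from 72.0 to 158 CPM with a median of 128 in p150neg cerebella, against 117 to 147 CPM with a median of 137 in p150pos cerebella (-0.15 ± 0.14, 0.802). Ddit3 (-0.21 ± 0.19, 0.802) and Chac1 (-0.01 ± 0.38, 0.996) had overlapping groups, at medians of 31.1 and 8.58 CPM in p150neg cerebella, against 34.1 and 10.0 CPM in p150pos cerebella. Gdf15, Fgf21, Stc2 and Atf5 stood at or under 2.75 CPM in every cerebellum and were not tested. Macrophage and monocyte markers summed to 313 to 754 CPM in p150neg cerebella, against 218 to 376 CPM in p150pos cerebella, and erythroid markers to 562 to 1898 CPM in p150neg cerebella, against 1943 to 3976 CPM in p150pos cerebella. Their part in these values was not tested.

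**Figure D5:**
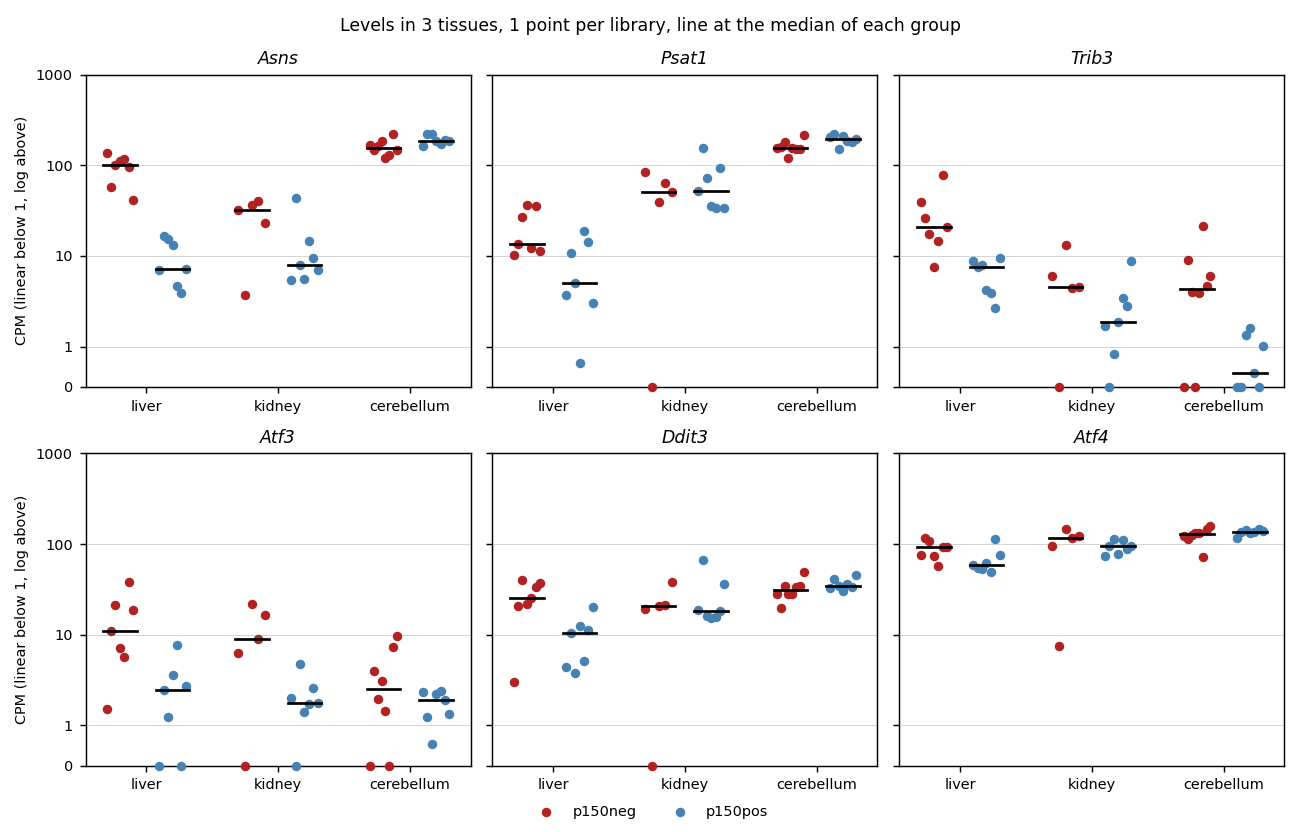
Level of 6 genes in each library in CPM (vertical axis linear below 1 and logarithmic above) in liver, kidney and cerebellum, with p150neg to the left of p150pos and a line at each group's median. Asns has a median of 100.1 CPM in p150neg livers and 7.12 CPM in p150pos livers, and lies between 119 and 222 CPM in cerebella of both groups; Atf4 lies between 48.9 and 158 CPM in every library but the p150neg kidney of animal 3.

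Whether the genotype effect on Asns differed from organ to organ was tested with an interaction term. The effect was larger in liver than in cerebellum by 3.69 ± 0.36 on the log2 scale (edgeR adjusted p = 1.14e-07 over 14063 genes), and by 3.8 ± 0.38 (2.17e-05) with the animal as a replicate block. Psat1 was the other member with a different effect in liver and cerebellum (1.65 ± 0.46, 0.0459), but with the block it did not pass (1.73 ± 0.58, 0.191), and it lost the call when any of 21 of the 29 libraries was left out, with an adjusted p of up to 0.0938. These 2 of 31 members compare with 2.67% of all genes. Ddit3 stood just outside the threshold (1.62 ± 0.47, 0.0549).

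Between liver and kidney none of 29 members differed in effect (1.5% of 12970 genes did; before adjustment 4 of the 29 were under 0.05, as were 9.41% of all genes, and Asns was called by DESeq2 among 392 genes). The difference for Asns was 2.24 ± 0.64 (edgeR adjusted p = 0.0727), and 1.49 ± 0.48 (0.118) without the kidneys of animals 3 and 5, which had many genes at 0. Between kidney and cerebellum none of 30 members differed by edgeR or DESeq2 (0.114% of 14940 genes did by edgeR; 7 of the 30 had an unadjusted p under 0.05, as did 7.56% of all genes). There Asns stood at 1.52 ± 0.48 (0.301). It stood at 2.16 ± 0.27 (1.48e-04) without the kidneys of animals 3 and 5 and the cerebellum of animal 11, which had many genes at 0. These libraries were left out once the values were known, and the kidneys among them held the lowest p150neg and highest p150pos Asns. The differences without them are therefore descriptions and no tests. Atf3 had log2 fold changes of 2.49 in liver and 2.30 in kidney, with a difference of 0.21 ± 1.07 (edgeR adjusted p = 1.0), and an SE too large to call them alike.

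Per kilobase of exon, which allows genes to be compared, the tissues used different members of the group. In p150pos cerebella Asns stood highest of the 32, with a median of 68.5 CPM per kb, followed by Atf4 (57.9), Phgdh (54.9) and Psat1 (46.3). In p150pos livers the highest was Cth (234), followed by Shmt2 (85.8), Cebpb (83.6) and Gpt2 (62.3), while Asns was 15th with 2.6 CPM per kb. In p150neg livers Asns had a median of 36.6 CPM per kb. In p150pos kidneys Cth (145), Slc3a2 (85.0) and Nupr1 (49.1) led, and Asns had 2.92 CPM per kb. The level of Asns in p150neg livers, 41.3 to 138 CPM, thus lay between that of p150pos livers and the 162 to 221 CPM of p150pos cerebella.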

How the data were processed

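The authors deposited a table of raw read counts per gene for 46 libraries of liver, kidney and cerebellum, with Ensembl gene IDs and symbols. Per the submitters' processing notes, the tools were FastQC 0.11.3, STAR 2.4.2a, SAMtools 1.2, Picard 1.134 and HTSeq 0.4.1, on GRCm38 (mm10); per the labels' protocols, RNA was taken up in TRIzol, cleaned with DNase on columns and made into libraries by transposase tagging. The gene annotation and the strand setting of the counting are not given in the sources used here. Counts of overlapping genes may therefore be mixed (6 of the 32 members).

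Of 53471 rows, 6 repeated others exactly and were dropped, leaving 53465 entries; the 3433 without a symbol held 0.267% of the counts. Gene positions came from GENCODE M21, which held 99.8% of the IDs. The 5 libraries with RNA of another organ than labelled were left out. Groups came from the labels, and nothing says how the organs were sampled, so the p-values measure the spread between these libraries.

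The members and lists were chosen with earlier results of these data known. All 32 members are named. Values per library or ranges are given for members called in any tissue, for Atf4, Ddit3, Asns, Trib3, Chac1, Gdf15 and Fgf21 and for the member with the largest absolute fold change of each subgroup; of the other pathway lists, those called and up to 4 with the smallest p.

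Each tissue was fitted on its own in edgeR 4.0.16 (R 4.3.3) with TMM scaling, filterByExpr (minimum count 10, minimum total 15) and the quasi-likelihood test, p150neg over p150pos, with Benjamini-Hochberg adjustment over all genes tested and a threshold of 0.05. SEs are the fold change divided by the root of F. Levels are counts per 1000000 of the library's total (CPM). Differences between tissues were tested as interactions. Animals carry the same number in each tissue, so the numbers pair the libraries. The correlation of same-numbered deviations from the group means was 6.25e-06 to 0.19 for liver with kidney. It was -0.0121 to 0.163 for liver with cerebellum, and -0.114 to 0.149 for kidney with cerebellum; a fit with the animal as a block was an alternative. Other alternatives were RLE factors, DESeq2 1.42.0, limma 3.58.1 voom, no filter, a filter at 2 CPM, robust fitting, all labelled libraries, no library under 1 M counts, a term for Xist or for the series of animal identifiers, 1 fit of all tissues, leaving out each library, and leaving out libraries with many genes at 0. The scripts were tested on simulated data. Promoters are from RefSeq (GRCm38.p6) and were found for 28 of the 32 members. The libraries used held 0.269 to 6.24 M counts, and in the shallowest 1 count was worth 3.71 CPM.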

Additional observations from a re-analysis of the deposited data

Results flagged for a closer look

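In the kidney of p150pos animal 5, Asns (43.11 CPM) and Ddit3 (66.98 CPM) lay far above the other p150pos kidneys, whose highest values were 14.54 and 36.01 CPM; 15.8% of the genes tested had no count in that library. Trib3 lay apart in the kidney of p150pos animal 15 (8.782 CPM, the next being 3.42 CPM). Chac1 lay apart in the cerebellum of p150neg animal 11 (24.34 CPM, the next being 11.94 CPM), a library with 25.5% of the tested genes at 0. These 4 values stand out of 48 groups examined, and chance marks about 1 group in 20.

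The genotype effect differed between liver and cerebellum for Asns, by 3.688 on the log2 scale, and for Psat1, by 1.651, both by edgeR's interaction test; Psat1 did not pass with the animal as a block.

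The 5 libraries left out of the comparisons hold RNA of another organ than their label, so their levels are given as values. Slc1a4 was at 69.43 CPM in the library labelled cerebellum of p150pos animal 7, against at most 44.2 CPM in the p150pos cerebella used. In libraries labelled kidney, Slc7a3 was at 6.107 CPM in p150neg animal 2, Chac1 at 15.83 CPM in p150neg animal 11 and Aldh18a1 at 61.74 CPM in p150pos animal 12, against at most 0, 1.846 and 5.72 CPM in the p150pos kidneys used. Ddit4 was at 24.4 CPM in the library labelled liver of p150neg animal 2, against at most 2.323 CPM in the p150pos livers used.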

How the results depend on the processing

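In liver, the 4 members called became 7 with voom, 7 with the identifier term and 8 in 1 fit of all tissues. Calls over all genes, 1152, were 1248 with voom, 1414 with the identifier term and 1113 in 1 fit, and fell to 740 with all labelled libraries. In kidney, 1 member was called by DESeq2, 1 without libraries under 1 M counts and 2 without libraries with many genes at 0 (chosen after seeing the data), while calls over all genes, 83, became 307 with DESeq2, 141 with no filter, 1 with all labelled libraries, 211 without libraries under 1 M counts, 32 with the identifier term, 229 in 1 fit and 532 without libraries with many genes at 0. In cerebellum, 1 fit called 1 member, and calls over all genes, 131, became 289 with DESeq2, 62 with voom and 219 in 1 fit. For the differences between tissues, the replicate block (animal) gave 119 genes between liver and kidney, 196 between liver and cerebellum and 9 between kidney and cerebellum; it left 1 member called between liver and cerebellum, losing Psat1, and changed no other call of a member. Between liver and kidney, DESeq2 and no filter each called 1 member, and calls over all genes were 71 with all labelled libraries and 392 with DESeq2. DESeq2 gave 691 between liver and cerebellum and 131 between kidney and cerebellum, where no filter gave 31 and leaving out libraries with many genes at 0 gave 73, with 1 member. Of the members tested, the sign changed under at least 1 such alternative for 1 of 22 in liver (Atf5), 6 of 26 in kidney, 6 of 26 in cerebellum, 5 of 29 between liver and kidney, 0 of 31 between liver and cerebellum and 7 of 30 between kidney and cerebellum, and 0 of these had been called. Examples are Atf4 in kidney (-0.12 with the identifier term), Ddit3 in kidney (0.26 without libraries with many genes at 0), Chac1 in cerebellum (0.025 with Xist), Trib3 between liver and kidney (-0.22 with all labelled libraries) and Ddit3 between kidney and cerebellum (0.028 with all labelled libraries, 0.48 without libraries with many genes at 0). The cause was not tested.

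Leaving out 1 library at a time, members called ranged from 2 (without p150neg animal 14) to 8 (without p150pos animal 13) in liver, 0 to 1 in kidney, 0 to 0 in cerebellum, 0 to 0 between liver and kidney, 1 to 3 between liver and cerebellum and 0 to 1 between kidney and cerebellum. Calls over all genes ranged from 904 to 1489 in liver, 34 (without p150neg animal 8) to 211 (without p150neg animal 3) in kidney, 91 to 179 in cerebellum, 160 to 260 between liver and kidney, 298 to 507 between liver and cerebellum and 8 to 33 between kidney and cerebellum. The sign changed for 1 of 22 members in liver (Atf5), 5 of 26 in kidney, 5 of 26 in cerebellum, 4 of 29 between liver and kidney, 3 of 31 between liver and cerebellum and 10 of 30 between kidney and cerebellum, 0 of them called. Examples of such ranges are -0.13 to 0.29 for Atf4 and -0.65 to 0.077 for Ddit3 in kidney, -0.27 to 0.15 for Chac1 in cerebellum, -0.23 to 0.89 for Atf3 between liver and kidney, and -0.38 to 0.28 for Ddit3 between kidney and cerebellum. Too few counts were found to test 10 members in liver and 6 each in kidney and cerebellum. The filter at 2 CPM was laxer than the planned one, which asked for 3.91 CPM in liver, 4.19 in kidney and 2.62 in cerebellum.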
